A study of Saccharomyces cerevisiae with 10 samples.

Results

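The transcripts described here are those of 46 yeast genes that charge transfer RNAs or drive the steps of cytosolic protein synthesis, out of 5654 named Saccharomyces cerevisiae genes measured. They were picked out by name in the authors' deposited table, from a list of enzymes and factors drawn up with earlier results of these data known, and each is read by 1 probe set. The list holds 18 genes of aminoacyl-tRNA synthetases, 21 of initiation factors, 5 of elongation factors and 2 of release factors. It holds no gene for the arginine, cysteine or proline enzymes. All 46 exceeded the background of each of the 10 arrays, so no member was lost to a filter on low values. As background served the level that 95% of the array's probe sets for another yeast, Schizosaccharomyces pombe, do not reach.

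Aminoacyl-tRNA synthetases join each amino acid to its own transfer RNA, and several of the yeast genes also make the mitochondrial form of the enzyme. Initiation factors bring the ribosome and the initiator transfer RNA to the start codon of a message, elongation factors move the chain forward by 1 residue at a time, and release factors free it at the stop codon. In S. cerevisiae, genes for the translation machinery are known to be transcribed strongly during fast growth and weakly when nutrients or growth become limiting.

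Strain TMB3500 was grown in an aerobic batch culture on glucose and then fed continuously. All 5 groups share this strain and batch phase: the start of the feed (0 h), 9 h and 18 h of a feed of spruce hydrolysate that had not been detoxified, and 9 h and 18 h of a feed of glucose, mannose and xylose at sugar concentrations close to those of the hydrolysate. The feed rose from 0.04 to 0.1 L/h over 16 h, by which time 1 L had been added to 0.7 L, so the samples labelled 18 h were taken after the end of that ramp. Each group holds 2 biological replicates, measured on 1 single-colour Affymetrix 3′ expression array each, and the labels do not say whether a culture was sampled more than once.

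Each level is a log2 value that the authors deposited, made by RMA (robust multi-array averaging), so a difference of 1 is a doubling. A gene was called higher or lower where limma's moderated test in a fit of all 10 arrays gave a Benjamini-Hochberg adjusted p under 0.05 over the 5654 genes. The precision is limited by the number of arrays, 2 a group. The arrays of hydrolysate at 9 h correlated least, at 0.971 across all genes against 0.980 to 0.996 in the other groups. Replicate 1 was the higher there for 35 of the 46 genes, by a median of 0.118. The replicates of sugar at 18 h were also shifted, the other way: replicate 1 was the higher for 8 genes, with a median difference of -0.093. In the remaining groups it was the higher for 20 to 22 genes. The difference between the 3′ and the 5′ probe sets of 8 control genes, a measure of RNA quality, had a mean at 18 h of 1.23 ± 0.052 (log2, SD, n = 2) for hydrolysate against 0.599 ± 0.0077 for sugar. It was 0.960 ± 0.049 and 0.669 ± 0.0030 at 9 h, and 0.831 ± 0.075 before feeding. The spike-in controls read 11.69 before feeding and 10.44 to 10.75 afterwards. They are the hybridization controls bioB, bioC, bioD and cre, so scaling on them is an alternative scale and not a measure of RNA per cell.

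Many of the genes rose from the start to 9 h and fell again by 18 h: 28 of 46 were called in both steps in hydrolysate, 31 in sugar and 25 in both feeds. Over all genes, 33.6% were called higher in the first step and 17.1% lower in the second in hydrolysate. In sugar these shares were 33.9% and 27%. The share of all genes called in both steps was not computed. Both steps use the same 9 h arrays, so an error in those arrays enters both, in opposite directions. The group with the highest mean was hydrolysate at 9 h for 20 of the 46 genes, sugar at 9 h for 22 and sugar at 18 h for 4, and neither the start nor hydrolysate at 18 h held the highest mean of any. Over all genes, a 9 h group held the highest mean for 13.7% (hydrolysate) and 15.7% (sugar). The start did for 23.9%, hydrolysate at 18 h for 17.5% and sugar at 18 h for 29.2%. The lowest mean was at the start for 23 genes, in sugar at 18 h for 17, in hydrolysate at 18 h for 5 and in hydrolysate at 9 h for 1, the elongation factor gene HEF3. Over all genes these groups held the lowest mean for 29.1%, 24.2%, 12.1% and 15.9%. The members' share for hydrolysate at 18 h, 10.9%, was thus near that of all genes. For the synthetases the lowest group was sugar at 18 h in 11 of 18 genes, and for the initiation factors it was the start in 14 of 21.

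**Figure D1:**
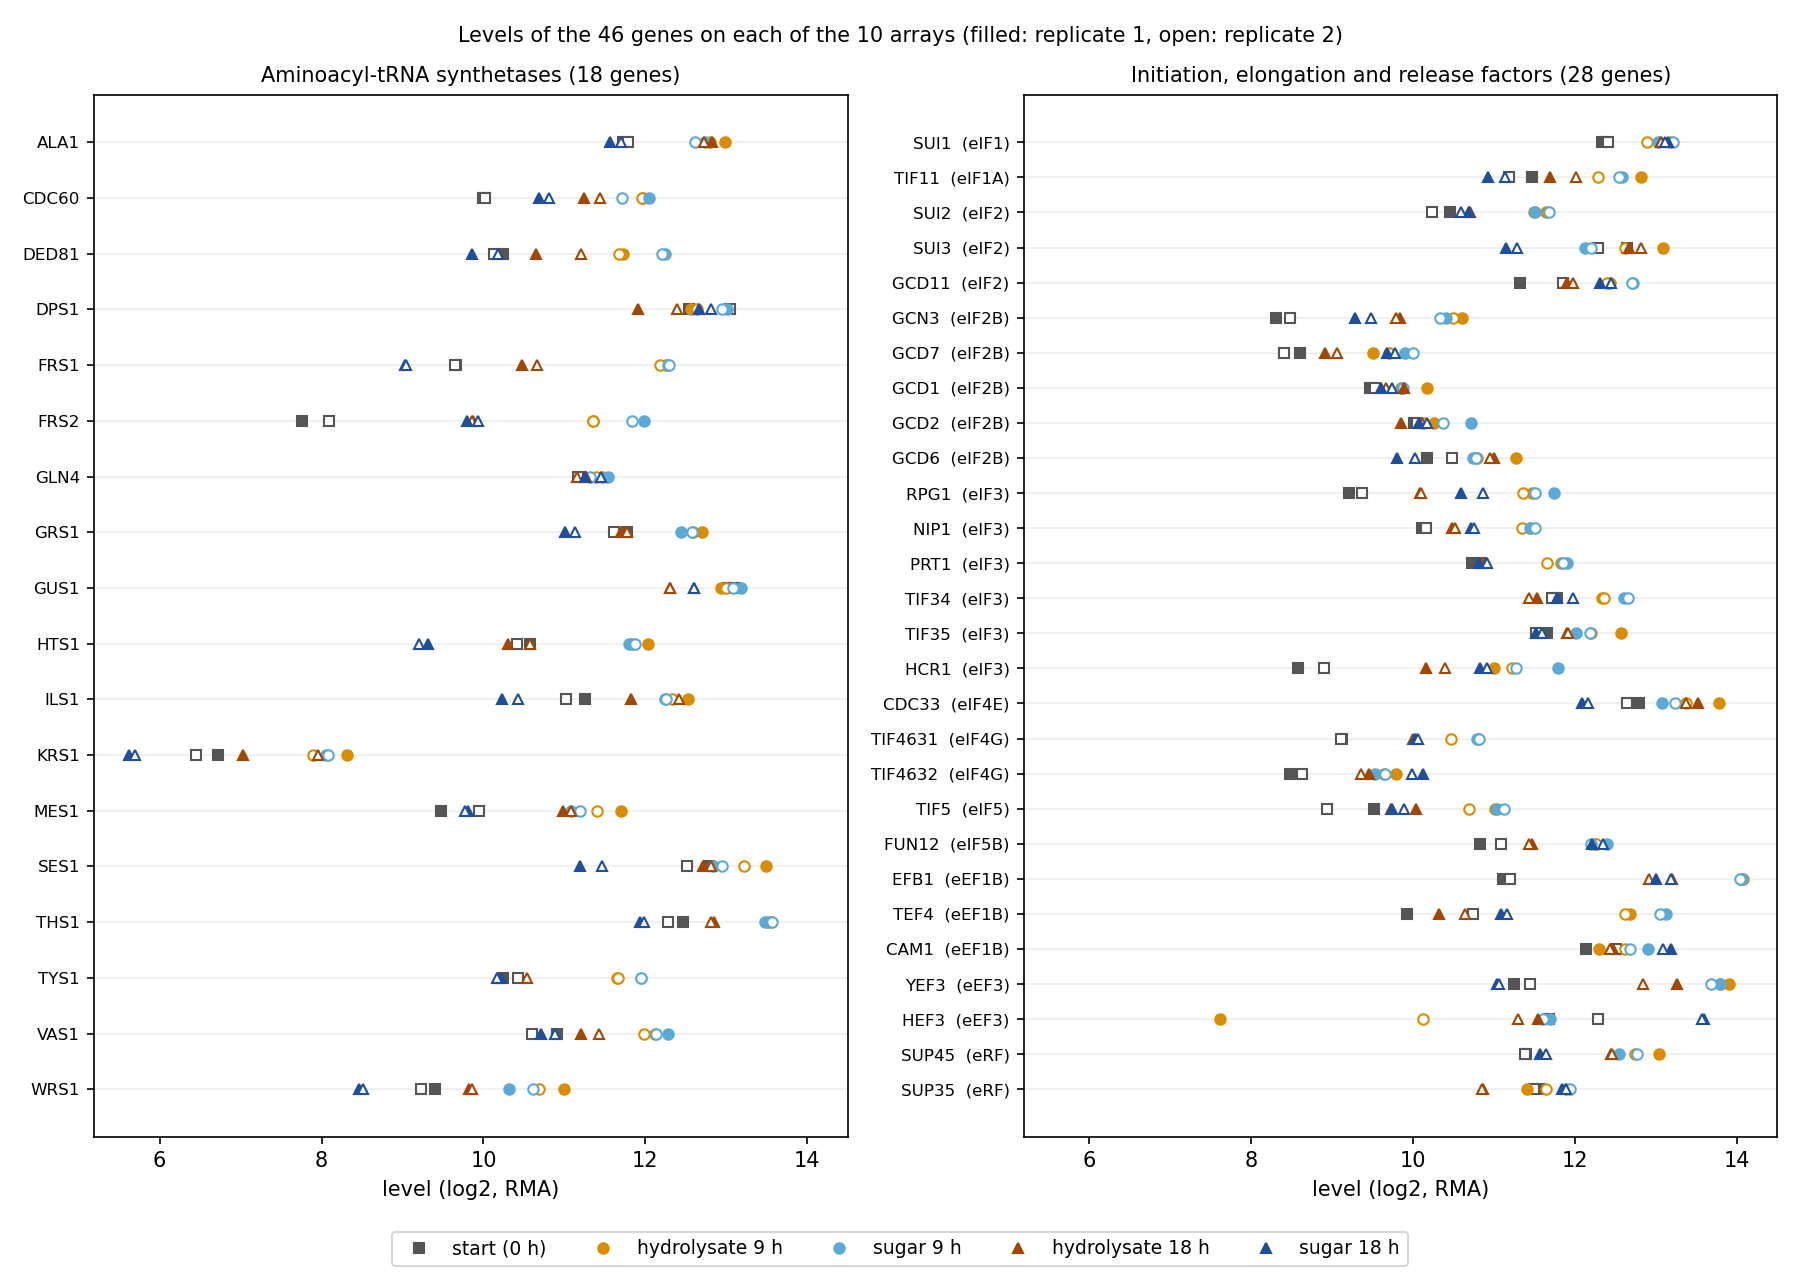
Level (log2, RMA) of each of the 46 genes on each array, synthetases on the left and factors on the right, with symbols for the 5 groups and filled or open symbols for replicates 1 and 2. For most genes the circles of both 9 h groups lie at the right, while the dark blue triangles of sugar at 18 h lie at the left for many synthetases, and HEF3 spreads from 7.61 to 13.60.

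The range over the 5 group means was widest for HEF3, at 4.72, and narrowest for GLN4, the glutaminyl-tRNA synthetase gene, at 0.25. GLN4 stood at 11.21 and 11.16 on the arrays of the start, 11.47 and 11.40 at 9 h and 11.27 and 11.16 at 18 h of hydrolysate, and 11.54 and 11.32 at 9 h and 11.25 and 11.45 at 18 h of sugar. Its group means thus differed little beyond the spread of the arrays, and it was not called in any of the 9 comparisons. With a trend on gene length removed, GLN4 in sugar at 18 h was below the start (-0.48, adjusted p = 0.00988 by limma) and below 9 h (-0.42, adjusted p = 0.0194). After scaling on the spike-ins it was called above the start in every later group. These values were 1.47 and 0.97 at 9 h and 18 h of hydrolysate and 1.49 and 1.33 of sugar. The median of all genes was then 1.04 to 1.26. By the range over group means HEF3 stood at the 99.1th percentile of all genes and GLN4 at the 0.814th.

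From the start to 9 h of either feed, most of the genes rose. In hydrolysate 38 of 46 were called higher and 1 lower, where 33.6% of all genes were called higher and 29.1% lower. The 1 that fell was HEF3, a gene of elongation factor 3, at -3.12 (SE 0.638, adjusted p = 0.00276). In sugar 38 were called higher and 0 lower, where the shares of all genes were 33.9% and 32.2%; by the unadjusted p, 40 were higher and 0 lower there. The median change of the 46 genes was 1.22 in hydrolysate and 1.19 in sugar, and that of all genes 0.03 and 0.00. The comparisons with the start share its 2 arrays, so an error in those arrays enters them all. In cell extracts of this kind, fewer cells that hold a transcript and less of it per cell cannot be told apart.

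Among the synthetases, 15 of 18 rose by 9 h of hydrolysate and 14 of 18 by 9 h of sugar, and 0 fell in either. Both genes of phenylalanyl-tRNA synthetase, an enzyme built of a pair of different subunits, stood out. FRS2 stood at 7.76 and 8.09 on the arrays of the start, 11.35 and 11.35 at 9 h and 9.88 and 9.86 at 18 h of hydrolysate, and 11.98 and 11.83 at 9 h and 9.79 and 9.94 at 18 h of sugar. All arrays of the later groups lay above both arrays of the start. The rise of FRS2 by 9 h was 3.43 (SE 0.147, adjusted p = 2.87e-06) in hydrolysate and 3.98 (SE 0.147, adjusted p = 2.22e-06) in sugar, the largest of any member in both. FRS1 stood at 9.66 and 9.65 on the arrays of the start, 12.26 and 12.17 at 9 h and 10.47 and 10.66 at 18 h of hydrolysate, and 12.28 and 12.29 at 9 h and 9.03 and 9.05 at 18 h of sugar. FRS1, the gene of the partner subunit, rose by 2.57 (SE 0.121) and 2.64 (SE 0.121), and its levels in the 9 h groups lay above all others.

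Not every synthetase gene rose. The glutamyl enzyme gene GUS1 and the aspartyl enzyme gene DPS1 were among those not called at 9 h in either feed. GUS1 stood at 13.03 and 13.10 on the arrays of the start, 12.94 and 13.00 at 9 h and 12.30 and 12.30 at 18 h of hydrolysate, and 13.18 and 13.08 at 9 h and 12.60 and 12.60 at 18 h of sugar. The arrays of the start and of 9 h lay within a narrow band, and those of 18 h below it. DPS1 stood at 12.54 and 13.04 on the arrays of the start, 12.56 and 12.63 at 9 h and 11.91 and 12.38 at 18 h of hydrolysate, and 13.00 and 12.95 at 9 h and 12.66 and 12.81 at 18 h of sugar. Its lowest arrays were those of hydrolysate at 18 h, and the arrays of the start spanned those of sugar at 9 h.

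Of the 21 initiation factor genes, 19 rose by 9 h of hydrolysate and 18 by 9 h of sugar, and 0 fell. All 6 genes of eIF3, the scaffold that holds the small ribosomal subunit during initiation, rose in both feeds. Its loosely bound subunit gene HCR1 changed most. HCR1 stood at 8.58 and 8.90 on the arrays of the start, 11.00 and 11.22 at 9 h and 10.16 and 10.39 at 18 h of hydrolysate, and 11.79 and 11.27 at 9 h and 10.83 and 10.91 at 18 h of sugar. Both arrays of the start lay well below the rest, and HCR1 rose by 2.37 (SE 0.202, adjusted p = 2.55e-05) in hydrolysate and 2.79 (SE 0.202, adjusted p = 1.03e-05) in sugar. GCN3 encodes the regulatory subunit of eIF2B, the factor that reloads eIF2 with GTP. GCN3 stood at 8.30 and 8.48 on the arrays of the start, 10.60 and 10.49 at 9 h and 9.83 and 9.79 at 18 h of hydrolysate, and 10.41 and 10.33 at 9 h and 9.28 and 9.48 at 18 h of sugar. Its lowest arrays were those of the start and its highest those of 9 h, with rises of 2.16 (SE 0.133) and 1.98 (SE 0.133). SUI3, the gene of the beta subunit of eIF2, was not called at 9 h in either feed, at 0.39 (adjusted p = 0.0987) and -0.30 (adjusted p = 0.188).

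Of the 5 elongation factor genes 3 rose several-fold in both feeds by 9 h. EFB1 encodes the nucleotide exchange subunit of eEF1B, which reloads elongation factor 1A. EFB1 stood at 11.11 and 11.19 on the arrays of the start, 14.05 and 14.08 at 9 h and 13.19 and 12.92 at 18 h of hydrolysate, and 14.06 and 14.04 at 9 h and 13.00 and 13.18 at 18 h of sugar. The arrays of 9 h lay highest, those of 18 h between and those of the start lowest, and EFB1 rose by 2.91 (SE 0.138, 7.53-fold) in hydrolysate and 2.90 (SE 0.138, 7.47-fold) in sugar. TEF4, a gene of the gamma subunit of eEF1B, rose by 2.31 and 2.75, and YEF3, the main gene of elongation factor 3, by 2.50 and 2.39. Of the release factor genes, SUP45 (eRF1, which reads the stop codon) rose in both feeds, by 1.50 and 1.27. Its partner SUP35 (eRF3, a GTPase) was called in sugar, at 0.39 (adjusted p = 0.0244), and not in hydrolysate, at -0.00; the feeds themselves differed by -0.39 at 9 h (adjusted p = 0.0777).

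By 18 h the feeds stood differently to the start. In hydrolysate 26 of the 46 genes were still called above the start and 3 below it, where 33.2% and 22.2% of all genes were. In sugar 17 were called above and 11 below, where the shares of all genes were 36.8% and 29.7%. The synthetases split by feed: 11 above and 2 below the start in hydrolysate, with a median of 0.54, but 2 above and 9 below in sugar, with a median of -0.29, a direction that depends on the scale, since after scaling on the spike-ins 12 were above and 0 below in sugar with a median of 0.87. That scaling moved the median of all genes against the start from between 0.00 and 0.10 to between 1.04 and 1.26, and the share of called genes that were higher from between 51.3% and 59.9% to between 92.2% and 95.4%. Relative to that shift the synthetases again lay lower in sugar at 18 h, with a median of 0.87 against 1.25 for all genes. With the trend on gene length removed, 12 members were above and 19 below the start in sugar, with a median of -0.21 in place of 0.11, and 1 synthetase above and 14 below.

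In sugar at 18 h the largest falls below the start were in SES1, the seryl enzyme gene, at -1.32 (SE 0.163), SUI3 at -1.25 (SE 0.188) and HTS1, the histidyl enzyme gene, at -1.24 (SE 0.147); none of the 3 was called after spike-in scaling (-0.16, -0.08 and -0.07). SES1 stood at 12.78 and 12.52 on the arrays of the start, 13.50 and 13.21 at 9 h and 12.71 and 12.81 at 18 h of hydrolysate, and 12.84 and 12.95 at 9 h and 11.20 and 11.46 at 18 h of sugar. Sugar at 18 h held its lowest arrays and hydrolysate at 9 h its highest. HTS1 stood at 10.57 and 10.42 on the arrays of the start, 12.04 and 11.83 at 9 h and 10.31 and 10.58 at 18 h of hydrolysate, and 11.80 and 11.87 at 9 h and 9.31 and 9.21 at 18 h of sugar. Its arrays of hydrolysate at 18 h overlapped those of the start, and those of sugar at 18 h lay below both. HCR1, EFB1 and FRS2 were the called genes furthest above the start in sugar, at 2.13, 1.94 and 1.94. In hydrolysate at 18 h FRS2, EFB1 and YEF3 were the furthest above it, at 1.94, 1.90 and 1.70. The 3 genes below the start there were GUS1 (-0.76, adjusted p = 0.000825), SUP35 (-0.67, adjusted p = 0.00242) and DPS1 (-0.64, adjusted p = 0.0267), and these signs turned with spike-in scaling, to 0.18, 0.27 and 0.29.

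Between 9 h and 18 h more of the genes fell than rose in both feeds. In hydrolysate 30 of 46 were called lower and 1 higher, where 17.1% and 18% of all genes were. In sugar 35 were called lower and 2 higher, where the shares were 27% and 31.9%. The median change was -0.67 in hydrolysate and -0.98 in sugar, against 0.06 and 0.08 over all genes. With spike-in scaling the split of all called genes in hydrolysate moved from 51.3% to 16.4% higher, with a median of -0.23, and the members' median was -0.96. Of the synthetases, 12 of 18 fell in hydrolysate and 16 of 18 in sugar, and 0 rose in either, by medians of -0.69 and -1.56. The 6 eIF3 genes all fell in both feeds. The count of calls in hydrolysate was 20 without hydrolysate replicate 1 at 18 h. These comparisons use the same arrays as those with the start.

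TEF4, FRS1 and HTS1 fell furthest between the times in hydrolysate, at -2.17 (SE 0.242, adjusted p = 0.000503), -1.65 (SE 0.121, adjusted p = 7.17e-05) and -1.49 (SE 0.147, adjusted p = 0.000295). In sugar FRS1 fell by 3.25 (SE 0.121, 9.49-fold lower), YEF3 by 2.69 (SE 0.163) and HTS1 by 2.57 (SE 0.147). HEF3 rose in both feeds, by 2.55 (adjusted p = 0.0161) in hydrolysate and 1.94 (adjusted p = 0.0282) in sugar. The call in hydrolysate was lost with only the arrays compared (adjusted p = 0.0823) and that in sugar with the length trend removed (1.47, adjusted p = 0.0751), and they held in 8 and 6 of 10 fits without an array. The other gene that rose was TIF4632, a gene of the eIF4G scaffold, which rose in sugar (0.45, adjusted p = 0.0166) but was not called with the length trend removed (0.05) or after spike-in scaling (0.37).

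**Figure D2:**
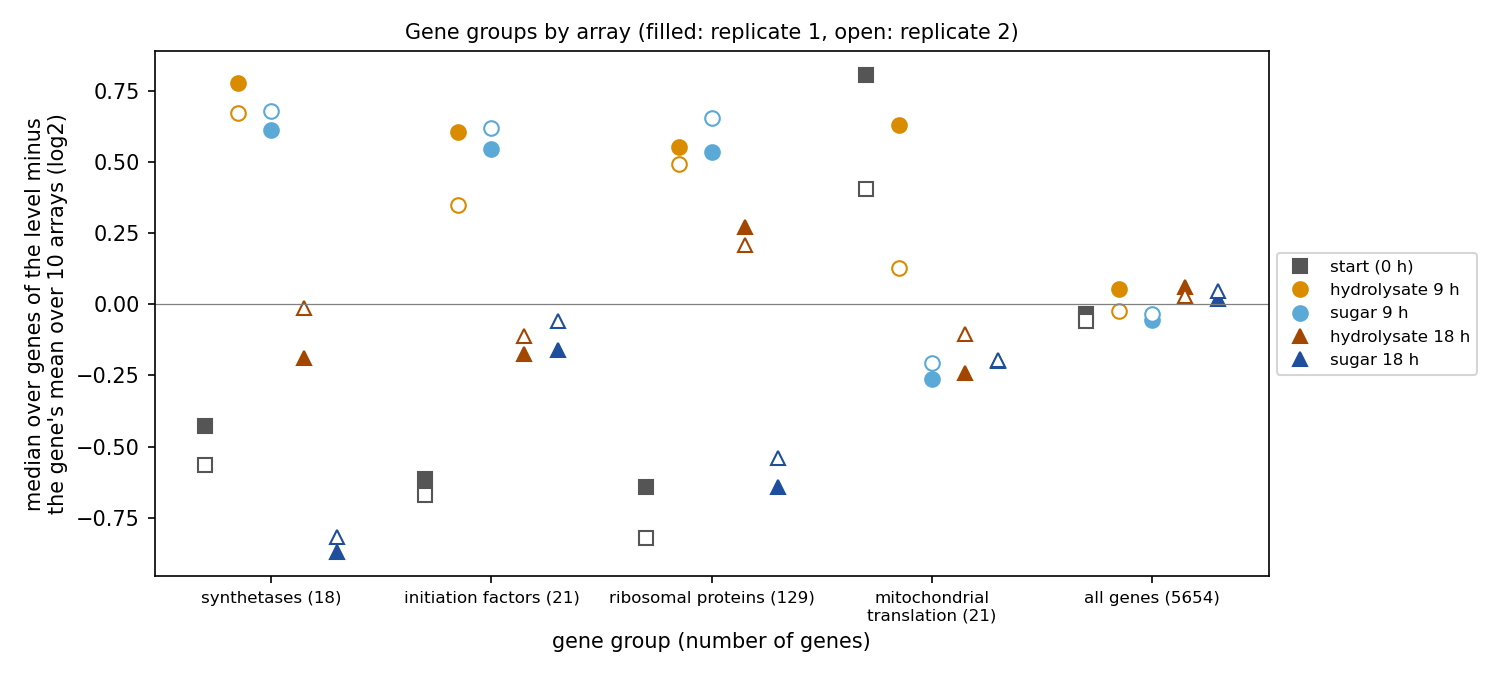
Median over the genes of each group of the level minus the gene's own mean over the 10 arrays (log2), 1 symbol per array, for the synthetases, initiation factors, ribosomal proteins, mitochondrial translation genes and all genes. The synthetases lie between 0.61 and 0.78 at 9 h, at -0.19 and -0.01 in hydrolysate at 18 h, and at -0.87 and -0.82 in sugar at 18 h; the initiation factors at 18 h lie between -0.18 and -0.06 in both feeds.

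The central question of the design is how hydrolysate differs from sugar at the same time of feeding. At 9 h almost no member differed between the feeds. Of the 46 genes 0 were called higher and 1 lower in hydrolysate, where 5.77% of all genes were called higher and 3.91% lower; by limma's unadjusted p, 5 were higher and 5 lower, and the authors' deposited table calls 0. Leaving out 1 array gave between 0 and 5 calls, with 0 in the 6 fits that lacked an array of sugar at 9 h, sugar at 18 h or hydrolysate at 18 h, 3 without either array of the start and 5 without hydrolysate replicate 2 at 9 h. The count over all genes moved as well, from 547 to between 30 and 48 without hydrolysate replicate 1 or either sugar array at 9 h, to 1550 without hydrolysate replicate 2 at 9 h, and to 23 with only the arrays compared. The 18 synthetases had a median difference of 0.02, with 0 called in either direction and 3 higher and 2 lower by the unadjusted p. The differences nearest to a call were FRS2 at -0.55 (95% interval -0.89 to -0.22, adjusted p = 0.0504) and SUI3 at 0.69 (95% interval 0.26 to 1.12, adjusted p = 0.0535). An interval of this width does not show that the feeds acted alike on a gene.

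The 1 gene called at 9 h was HEF3, a close copy of the elongation factor 3 gene YEF3 that is known in S. cerevisiae to be raised in zinc-deficient cells. HEF3 stood at 11.68 and 12.29 on the arrays of the start, 7.61 and 10.12 at 9 h and 11.54 and 11.30 at 18 h of hydrolysate, and 11.69 and 11.60 at 9 h and 13.60 and 13.57 at 18 h of sugar. The arrays of hydrolysate at 9 h differ from each other by over 2 log2 units, both lie below every other array, and those of sugar at 18 h lie above all others. The difference at 9 h was -2.78 (SE 0.638, adjusted p = 0.0371). Against the start, HEF3 in sugar at 18 h stood at 1.60 (adjusted p = 0.0522), or 2.76 after spike-in scaling (adjusted p = 0.00027 by limma). The difference between the feeds at 9 h was -1.53 without hydrolysate replicate 1 and -4.03 without replicate 2, and the call was lost in 6 of the 10 fits that left out 1 array, with an adjusted p of up to 0.165.

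At 18 h 20 of the 46 genes were called higher in hydrolysate and 11 lower than in sugar, where 31.2% and 30.8% of all genes were, so that the number called was near the share over all genes. Of the 18 synthetases 13 were higher, 1 was lower and 4 were not called, with a median of 0.89 (all genes 0.01). Of the other 28 genes 7 were higher and 10 lower, and the groups were not tested against each other. Without any 1 of the 10 arrays, between 22 and 33 of the 46 genes were called, and 20 of the 31 calls held in each of these fits. The 11 others were CDC60, DPS1, VAS1, TIF11, GCN3, RPG1, TIF34, HCR1, TEF4, CAM1 and HEF3. With spike-in scaling, which gave all genes a median of -0.22 and a split of 37.6% higher instead of 50.3%, 15 members were higher and 12 lower, and 10 synthetases higher and 1 lower.

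RNA quality also differed between the feeds at 18 h, as the control genes showed. Over all genes the difference at 18 h ran against gene length (Spearman's rho = -0.29 over 5601 genes, as a description), while over the 46 members rho was -0.02. With a trend on gene length taken off each array, 18 of the 46 genes were higher and 8 lower, and 13 synthetases higher and 0 lower. TEF4, TIF4632 and GCN3 were among the genes no longer called then, at -0.51, -0.29 and 0.31.

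The lysyl and isoleucyl enzyme genes KRS1 and ILS1 had the largest differences among the synthetases. KRS1 stood at 6.72 and 6.45 on the arrays of the start, 8.31 and 7.89 at 9 h and 7.03 and 7.95 at 18 h of hydrolysate, and 8.05 and 8.08 at 9 h and 5.62 and 5.69 at 18 h of sugar. Sugar at 18 h held the lowest arrays, and those of hydrolysate at 18 h differed from each other by almost 1 log2 unit but did not overlap with them. KRS1 was higher in hydrolysate by 1.83 (SE 0.28, 3.57-fold, adjusted p = 0.000685). KRS1 was a dim gene, with a mean at the 7.43th percentile of all genes. Its sugar arrays at 18 h lay near the background, which was 4.80 and 4.78 on them. ILS1 stood at 11.26 and 11.02 on the arrays of the start, 12.53 and 12.33 at 9 h and 11.82 and 12.42 at 18 h of hydrolysate, and 12.24 and 12.26 at 9 h and 10.23 and 10.42 at 18 h of sugar. Its sugar arrays at 18 h were again the lowest, and ILS1 differed by 1.80 (SE 0.203, 3.48-fold, adjusted p = 0.000193). The other called rises ran from 0.52 in VAS1 (valyl) through 0.60 in CDC60 (leucyl), 0.87 in THS1 (threonyl), 1.14 in ALA1 (alanyl) and 1.35 in WRS1 (tryptophanyl) to 1.53 in FRS1.

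The subunit genes FRS1 and FRS2 gave different values at 18 h. FRS1 was higher in hydrolysate by 1.53 (95% interval 1.25 to 1.80, adjusted p = 7.19e-05), while FRS2 differed by 0.00 (95% interval -0.33 to 0.34, adjusted p = 0.979). The arrays of both feeds at 18 h overlap for FRS2 and lie far apart for FRS1. The difference between the genes was not itself tested. DPS1 was the 1 synthetase gene called lower, at -0.59 (adjusted p = 0.0338), and it kept its call in 5 of 10 fits that left out an array. TYS1 (tyrosyl), GUS1 and GLN4 were not called, at 0.18, -0.30 and -0.14.

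The 21 initiation factor genes had 5 higher and 6 lower in hydrolysate at 18 h and a median of -0.03. Of all genes 31.2% were called higher and 30.8% lower, so neither count exceeded the share over all genes. Subunit genes of 1 complex were not called together. Of eIF2, SUI3 was higher by 1.53 (SE 0.188, adjusted p = 0.000277), while the alpha and gamma subunit genes SUI2 and GCD11 were not called, at 0.06 and -0.44. SUI3 stood at 12.64 and 12.29 on the arrays of the start, 13.09 and 12.62 at 9 h and 12.67 and 12.82 at 18 h of hydrolysate, and 12.12 and 12.20 at 9 h and 11.15 and 11.29 at 18 h of sugar. Both sugar groups lay below both hydrolysate groups, with sugar at 18 h lowest.

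Of the 5 eIF2B genes, the catalytic subunit gene GCD6 was higher (1.06, adjusted p = 0.00136), GCN3 was higher by a small amount (0.43, adjusted p = 0.0202) and GCD7 was lower. GCD7 stood at 8.60 and 8.41 on the arrays of the start, 9.51 and 9.70 at 9 h and 8.91 and 9.06 at 18 h of hydrolysate, and 9.90 and 10.00 at 9 h and 9.68 and 9.77 at 18 h of sugar. For GCD7 the arrays of hydrolysate at 18 h lay between those of the start and those of the other 3 groups, and the difference was -0.74 (SE 0.139, adjusted p = 0.00193). GCD1 and GCD2 were not called. The call of GCN3 was lost in 3 of 10 fits without an array, after spike-in scaling (0.21) and with the length trend removed (0.31).

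Among the 6 eIF3 genes 0 were higher and 3 lower, where 31.2% and 30.8% of all genes were. The 3 were RPG1 at -0.64, HCR1 at -0.59 and TIF34 at -0.39. NIP1, PRT1 and TIF35 were not called, at -0.23, 0.00 and 0.35. CDC33, the cap-binding factor eIF4E, was higher by 1.32 (adjusted p = 0.000274), and TIF11, the scanning factor eIF1A, by 0.82 (adjusted p = 0.00796). FUN12 encodes eIF5B, the GTPase that joins the ribosomal subunits. FUN12 stood at 10.83 and 11.09 on the arrays of the start, 12.24 and 12.25 at 9 h and 11.47 and 11.43 at 18 h of hydrolysate, and 12.39 and 12.19 at 9 h and 12.21 and 12.34 at 18 h of sugar. Its arrays of hydrolysate at 18 h lay above the start and below the 3 other groups, a difference from sugar of -0.82 (SE 0.14, adjusted p = 0.00117).

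The largest rise and the largest fall of all 46 genes were both in elongation factor 3, a fungal ATPase that acts on the ribosome at each step. YEF3 stood at 11.25 and 11.44 on the arrays of the start, 13.91 and 13.79 at 9 h and 13.26 and 12.84 at 18 h of hydrolysate, and 13.79 and 13.68 at 9 h and 11.03 and 11.06 at 18 h of sugar. By 18 h of sugar both arrays of YEF3 lay just below those of the start (-0.30, not called), while both hydrolysate arrays at that time lay above them. That value for sugar was 0.87 after spike-in scaling (adjusted p = 0.00271) and -1.06 with the length trend removed (adjusted p = 0.000493), by limma. YEF3 was higher in hydrolysate by 2.00 (SE 0.163, 4.01-fold, adjusted p = 7.45e-05), and its copy HEF3 was lower by 4.48-fold (-2.16, SE 0.638, adjusted p = 0.0169). HEF3 kept this call in 6 of 10 fits without an array. The genes are the same length and lie on different chromosomes, YEF3 on chromosome XII, 636780 to 639914 and HEF3 on chromosome XIV, 606319 to 609453 in the coordinates of the authors' deposited table, with a genome build not given in the sources used. Whether transcripts of one copy also bind the probes of the other was not tested.

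The release factor genes parted as well. SUP45 was higher by 0.85 (SE 0.143, adjusted p = 0.0011) and SUP35 lower by 2.01-fold (-1.01, SE 0.126, adjusted p = 0.000296). SUP35 stood at 11.56 and 11.50 on the arrays of the start, 11.41 and 11.64 at 9 h and 10.87 and 10.85 at 18 h of hydrolysate, and 11.89 and 11.93 at 9 h and 11.84 and 11.89 at 18 h of sugar. Its arrays of hydrolysate at 18 h lay below all others.

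**Figure D3:**
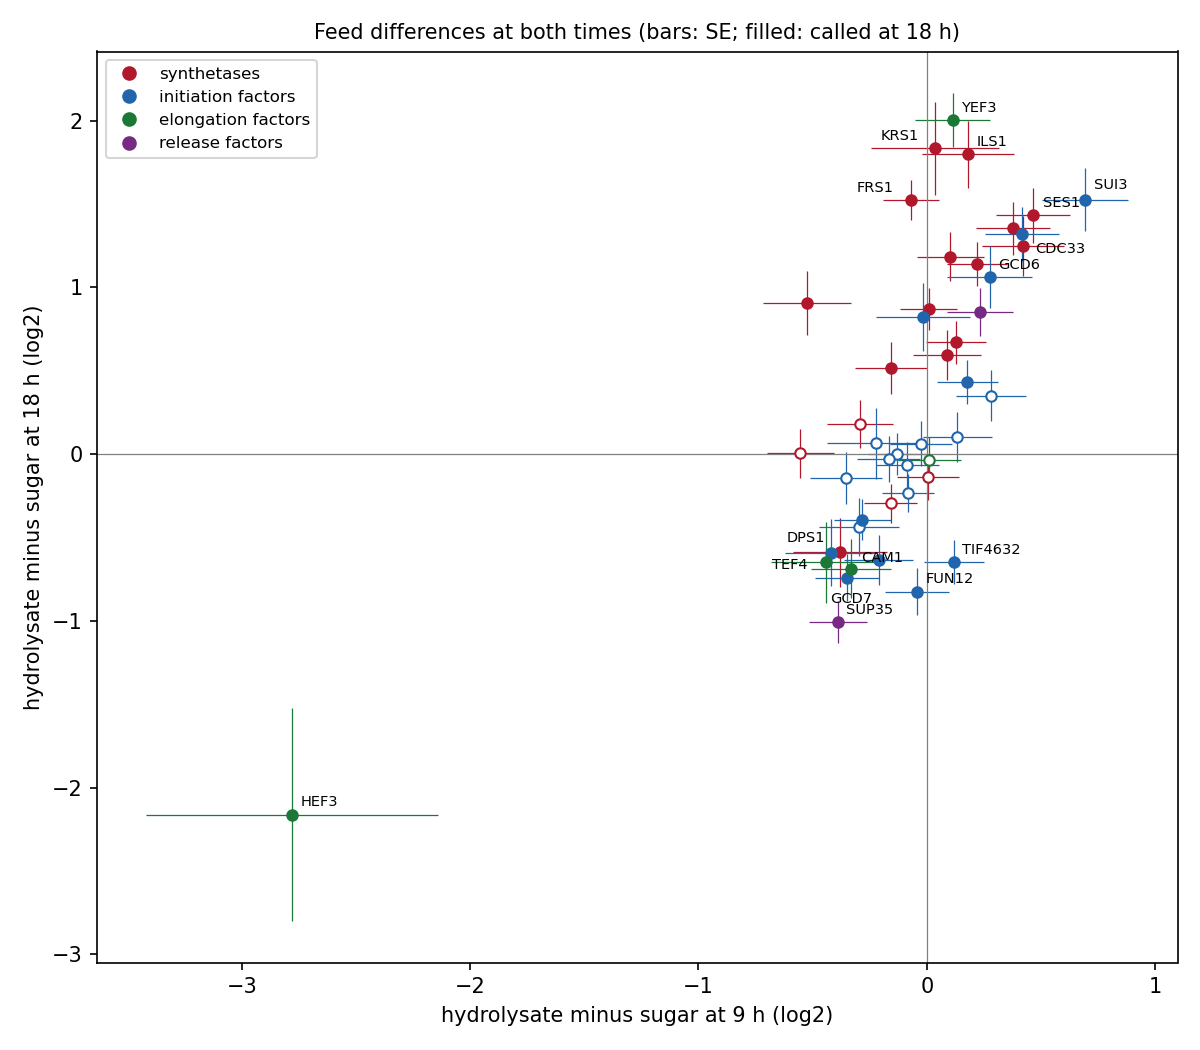
Difference between hydrolysate and sugar (log2) at 9 h on the horizontal axis and at 18 h on the vertical axis for each of the 46 genes, with bars for the SE and filled points for genes called at 18 h. Apart from HEF3 all points lie between -0.55 and 0.69 at 9 h, while at 18 h they spread from -1.01 for SUP35 to 2.00 for YEF3, with most synthetases above 0.

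The difference between the feeds changed between 9 h and 18 h for 16 of the 46 genes by limma's test of the change itself, 13 upward and 3 downward, where 14.3% and 13.1% of all genes changed. Of the synthetases 10 of 18 changed upward and 0 downward, with a median of 0.85. KRS1 changed by 1.80 (SE 0.396, adjusted p = 0.0138), a call lost after quantile normalization (1.49, adjusted p = 0.0547) and kept in 8 of 10 fits without an array. ILS1 changed by 1.62 (SE 0.286, adjusted p = 0.00739) and FRS1 by 1.60 (SE 0.172, adjusted p = 0.00153). YEF3 changed most of all members, by 1.89 (SE 0.231, adjusted p = 0.0023). The 3 downward changes were in FUN12 (-0.78), TIF4632 (-0.77) and SUP35 (-0.62), none of which was called with the length trend removed. For HEF3 the change was 0.62 (95% interval -1.44 to 2.68). This count depended on single arrays: it was 5 without sugar replicate 1 at 18 h, 9 without sugar replicate 2 at 18 h, 7 without sugar replicate 2 at 9 h and 9 without hydrolysate replicate 2 at 18 h. With spike-in scaling it was 7, when the split of all called genes moved from 52.3% to 35.3% upward. YEF3, FRS1, ILS1, DED81 (asparaginyl) and HTS1 were the 5 called in each fit that left out 1 array.

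The list holds 3 pairs of gene copies, and within a pair each gene is set against its own mean, since levels of different probe sets cannot be compared. The gamma subunit genes of eEF1B differed in course. TEF4 stood at 9.93 and 10.74 on the arrays of the start, 12.68 and 12.62 at 9 h and 10.31 and 10.64 at 18 h of hydrolysate, and 13.12 and 13.05 at 9 h and 11.09 and 11.16 at 18 h of sugar. TEF4 was high at 9 h of both feeds and fell back by 18 h, and the arrays of hydrolysate at 18 h lay within those of the start. CAM1 stood at 12.13 and 12.51 on the arrays of the start, 12.30 and 12.62 at 9 h and 12.46 and 12.43 at 18 h of hydrolysate, and 12.90 and 12.68 at 9 h and 13.18 and 13.09 at 18 h of sugar. CAM1 covered a range of 0.81 over the group means, against 2.75 for TEF4, and was highest in sugar at 18 h. Both were lower in hydrolysate than in sugar at 18 h, TEF4 by 1.57-fold (-0.65, adjusted p = 0.0433) and CAM1 by 1.61-fold (-0.69, adjusted p = 0.00859). TEF4 kept that call in 2 of 10 fits without an array, and CAM1 in 9.

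Both eIF4G genes rose by 9 h of either feed. TIF4631 stood at 9.13 and 9.11 on the arrays of the start, 10.80 and 10.47 at 9 h and 9.99 and 10.04 at 18 h of hydrolysate, and 10.79 and 10.81 at 9 h and 10.03 and 10.06 at 18 h of sugar. TIF4631 peaked at 9 h, and its feeds did not differ at 18 h beyond the spread (-0.03, 95% interval -0.34 to 0.28). TIF4632 stood at 8.48 and 8.62 on the arrays of the start, 9.79 and 9.64 at 9 h and 9.45 and 9.35 at 18 h of hydrolysate, and 9.53 and 9.66 at 9 h and 10.12 and 9.98 at 18 h of sugar. TIF4632 was highest in sugar at 18 h and lower in hydrolysate by 1.57-fold (-0.65, adjusted p = 0.00288).

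**Figure D4:**
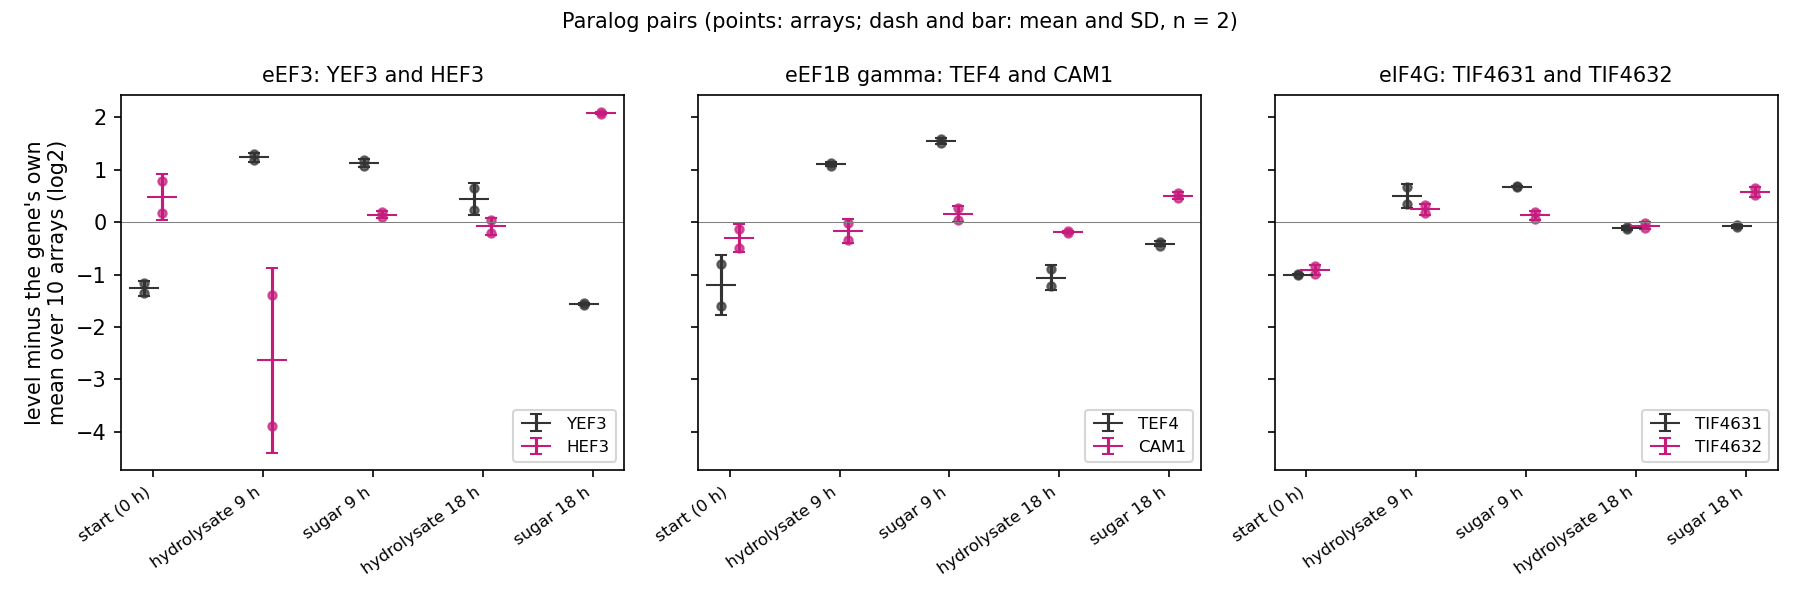
Level minus the gene's own mean over the 10 arrays (log2) in the 5 groups for 3 pairs of gene copies; points are arrays, dashes and bars the mean and SD (n = 2). YEF3 and HEF3 run in opposite directions in sugar between 9 h and 18 h, TEF4 covers a wider range than CAM1, and TIF4632 alone of its pair is highest in sugar at 18 h.

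Other genes of protein synthesis set these values in context. Of 129 cytosolic ribosomal protein genes 0 were higher and 1 lower in hydrolysate at 9 h, and 96 were higher and 1 lower at 18 h, with a median of 0.87 beside the 0.89 of the synthetases. Over all genes 5.77% were called higher and 3.91% lower at 9 h, and 31.2% and 30.8% at 18 h. Between 9 h and 18 h of sugar 128 of the ribosomal protein genes fell and 0 rose, where 27% and 31.9% of all genes did. A list of 23 further cytosolic translation genes (26 listed, 3 of them not found by name) had 0 higher and 2 lower at 9 h. At 18 h it had 1 higher and 8 lower, so that the number called lower was near the share over all genes. DBP1, an RNA helicase gene, was lower at both times (-1.66 and -2.55), the cap-complex binding protein gene EAP1 was lower at 18 h (-1.67), and so was PAB1, the poly(A) binding protein gene (-1.16). ARC1, whose product binds the methionyl and glutamyl enzymes, was lower at 9 h (-0.45, adjusted p = 0.0495) and at 18 h (-0.93, adjusted p = 0.000299), while MES1 was higher (1.25) and GUS1 was not called (-0.30) at 18 h. The call of ARC1 at 9 h held in 3 of 10 fits without an array.

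Of 7 genes, the activator gene GCN4 and 6 that bear on its translation, 0 were called at 9 h by limma (0 higher and 2 lower by the unadjusted p), and at 18 h GCN20, a positive effector of the pathway, was higher (1.00) and the eIF2 kinase gene GCN2 lower (-0.80, not called with the length trend removed). The shares of all genes called higher and lower were 5.77% and 3.91% at 9 h and 31.2% and 30.8% at 18 h. GCN4 is known to be regulated mainly at translation. GCN4 stood at 14.32 and 14.30 on the arrays of the start, 14.04 and 14.14 at 9 h and 14.19 and 13.99 at 18 h of hydrolysate, and 14.09 and 14.14 at 9 h and 14.15 and 14.21 at 18 h of sugar, and its feeds differed by -0.03 and -0.09, not called at either time.

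Of 21 genes of mitochondrial translation 4 were higher and 0 lower in hydrolysate at 9 h, where 5.77% and 3.91% of all genes were. The list's median difference was 0.55. The largest called differences were in MRF1 (1.02, a release factor), and in MEF2 (0.94) and RRF1 (0.83), which act in ribosome recycling. MSW1 had the largest difference of the list (1.21) but was not called. Its hydrolysate arrays at 9 h stood at 10.48 and 9.50. Each of the 4 calls held in 3 to 5 of the 10 fits without an array. The list's median was 0.63 on hydrolysate replicate 1 and 0.13 on replicate 2, as levels minus each gene's mean. At 18 h 7 were higher and 2 lower, where 31.2% and 30.8% of all genes were, with a median of -0.02, led by the mitochondrial synthetase genes MSW1 (2.26, tryptophanyl) and MSF1 (1.44, phenylalanyl) and by MEF2 (1.72). Against the start, 7 to 15 of the 21 genes were called lower and 0 to 2 higher over the 4 comparisons, where 22.2% to 32.2% of all genes were called lower and 33.2% to 36.8% higher.

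Genes under the control of zinc were set beside HEF3. Of 11 measured, 3 were lower in hydrolysate at 9 h, where 3.91% of all genes were. These were the iron and zinc transporter gene FET4 (-2.71) and the zinc transporter genes ZRT1 (-2.23) and ZRT2 (-1.28). With only the arrays compared, the 3 calls were lost (adjusted p = 0.0988, 0.0508 and 0.114 by limma). At 18 h 2 were higher and 7 lower, where 31.2% and 30.8% of all genes were. The 2 higher ones were ZPS1, with means of 10.48 in hydrolysate and 9.30 in sugar, and IZH2, with 11.47 and 10.06. ZRT1 stood at 7.62 and 8.25 on the arrays of the start, 8.44 and 8.46 at 9 h and 8.55 and 8.43 at 18 h of hydrolysate, and 11.01 and 10.35 at 9 h and 10.07 and 10.13 at 18 h of sugar, so that both sugar groups lay above all others at both times. ZAP1, the zinc-responsive activator gene, was not called at 9 h (-0.29) and was lower at 18 h (-1.09, adjusted p = 0.000355). The part of zinc in the difference of HEF3 was not tested.

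The authors' deposited table, in which 17 h stands for the time labelled 18 h, holds the same log2 differences and stricter calls. It calls 18 genes higher and 7 lower in hydrolysate at the first time and 216 higher and 89 lower at the later one. Of the 46 members it calls 0 at the first and 2 at the later time, both higher: YEF3, with an adjusted p of 0.00771 in the authors' deposited table, and FRS1, with 0.0429 in the authors' deposited table.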

How the data were processed

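The 10 Affymetrix 3′ arrays, 2 per group, were analysed from the deposited log2 values. Per the submitters' processing notes the authors used R 4.2.1, affy 1.74.0, limma 3.52.4 and robust multi-array averaging (RMA). The authors' deposited table adds gene names, coordinates, log2 differences, adjusted p-values and a call score of 1, 0 or -1. Its 10 per-array columns were not used here.

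Of 10928 probe sets, 5811 measure S. cerevisiae. Of these 108 had no gene name, and the brightest probe set was kept for the 47 genes with more than 1, leaving 5654 genes. limma 3.58.1 in R 4.3.3 was run on simulated data and then fitted to all 10 arrays with group means, default prior (prior df 3.49, residual df 5) and Benjamini-Hochberg adjustment, and 9 comparisons were tested. The labels call the arrays of a group biological replicates but do not say which share a culture. Replicates of the same number did not deviate together (correlations from -0.20 to 0.13), so no block was used.

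The background was 4.67 to 4.90 (log2), the 95th percentile of 5028 S. pombe probe sets. With 2 arrays a group, the number of arrays limits the precision. Alternatives changed the prior, dim-gene filter, arrays fitted, normalization, scaling (median, or 27 spike-in probe sets), gene length trend (loess, span 0.75), probe set choice, minimum fold and the arrays included.

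Genes named with values were, in each feed comparison, the up to 4 called members with the largest rises and falls, in the others up to 3 each, plus 3 pairs of copies, GCN3 and GLN4; from each further list up to 3 called genes were named, plus ARC1, GCN4, GCN2, ZAP1 and ZRT1. Other members are named with their enzyme group or complex. The members and lists were chosen with earlier results of these data known. Ribosomal protein genes were taken by name pattern.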

Additional observations from a re-analysis of the deposited data

Results flagged for a closer look

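The difference between hydrolysate and sugar was itself different at 18 h and at 9 h for 16 of the 46 genes, by limma's test of the change with an adjusted p under 0.05 over all genes. Of all genes 14.3% changed upward and 13.1% downward. Among the synthetases the difference moved upward by 1.80 (log2) in KRS1, 1.62 in ILS1, 1.60 in FRS1, 1.43 in DED81, 1.08 in HTS1, 0.98 in WRS1, 0.97 in SES1, 0.92 in ALA1, 0.86 in THS1 and 0.83 in MES1. DED81 was the 1 of these whose difference was below -0.5 at 9 h (-0.52, not called) and above 0.5 at 18 h (0.91, called). Its hydrolysate arrays at 18 h stood at 10.65 and 11.20. Among the factors the difference moved upward by 1.89 in YEF3, 0.90 in CDC33 and 0.83 in SUI3, and downward by -0.78 in FUN12, -0.77 in TIF4632 and -0.62 in SUP35.

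Of the further lists, the change was -1.29 in RRF1 (mitochondrial ribosome recycling), whose difference went from 0.83 to -0.46, and -1.26 in EAP1, which binds the cap-binding factor. It was 0.87 in GCN20, -0.80 in GCN2 and -0.80 in ZAP1. Without 1 array at a time, the call held in 6 of 10 fits for RRF1, 4 for EAP1, 9 for GCN20, 3 for GCN2 and 6 for ZAP1. Of the 11 zinc-controlled genes 1 changed upward and 3 downward, where 14.3% and 13.1% of all genes did. The upward one, ZPS1, chosen after its value was seen, changed by 1.47 and kept its call in 10 of 10 fits. With 2 arrays a group, no array could be tested as an outlier within its group.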

How the results depend on the processing

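Of the 9 counts of called genes, those at 9 h against the start (39 in hydrolysate and 38 in sugar) stayed within 1.5 times under each alternative. For hydrolysate against sugar at 9 h (1 gene) the count was 3 with a trended prior, 3 after quantile normalization, 3 with the length trend removed, 2 without dim genes, 2 with median centring, 0 with only the arrays compared, and 0 by the calls of the authors' deposited table. At 18 h (31 genes) it was 2 by the calls of the authors' deposited table. A minimum of 2-fold, which can only remove calls, left 14 at 18 h, 6 for the change between the times (16 genes), 9 and 10 for hydrolysate and sugar at 18 h against the start (29 and 28), and 8 and 23 for 18 h against 9 h in hydrolysate and sugar (31 and 37). Spike-in scaling left 7 for the change. Leaving out 1 array gave 0 to 5, 22 to 33 and 5 to 20 calls for 9 h, 18 h and the change; 37 to 40, 20 to 32, 34 to 40 and 21 to 30 against the start (hydrolysate 9 h and 18 h, sugar 9 h and 18 h); and 20 to 33 and 32 to 37 between the times. The 20 came without hydrolysate replicate 1 at 18 h.

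Signs turned in 5 named values that were called in the main fit or in the alternative. Spike-in scaling gave GUS1 0.18, SUP35 0.27 and DPS1 0.29 for hydrolysate at 18 h against the start, and YEF3 0.87 for sugar at 18 h against the start. Removing the length trend gave GLN4 -0.48 there. The cause was not tested. Named values otherwise lost their call in 165 instances and gained one in 19. The members' medians, which have no call, moved by at least the SD of replicate arrays in 22. The other 2542 instances, of both kinds, counted as the same. A named value called in neither fit was among them whatever its sign.

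Arrays of the same replicate number did not deviate together, which cannot show whether they came from the same culture. With the replicate number as a block the counts were 1, 31 and 13 for 9 h, 18 h and the change, 39, 29, 36 and 28 against the start, and 29 and 36 between the times. A random block of feed and number gave 31 and 37 between the times.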

Other observations

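Among the 46 genes the replicate arrays of sugar at 18 h correlated most (0.997 across the genes) and those of hydrolysate at 9 h least (0.948). The median absolute difference between replicates was smallest in sugar at 9 h (0.094, against 0.101 in sugar at 18 h). It was largest at the start (0.178, against 0.161 in hydrolysate at 9 h). Genes are not independent replicates. For HEF3 the SD of the 2 arrays was 1.8 in hydrolysate at 9 h and 0.068 in sugar at 9 h.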
